A study of Mus musculus with 47 samples.

Results

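Distal BRG1 sites were the BRG1 peaks of untreated control NMuMG cells that carried neither PHF10 nor H3K4me3 and lay away from genes' ends. NMuMG is a mouse mammary epithelial cell line. A site was taken when it overlapped, by 1 bp or more, no peak of either untreated control PHF10 list and no peak of the untreated control H3K4me3 list, and when it lay over 2 kb from both ends of every protein-coding gene on chromosomes 1 to 19, X and Y. The rule kept 19957 of 29215 BRG1 peaks, or 68.3% (exact Clopper-Pearson 95% interval 67.8 to 68.8). The BRG1, PHF10 and H3K4me3 peaks of untreated control cells chose these sites, so the sites were chosen by measured values and their levels of these 3 in untreated control cells are a description only. All intervals below are of the same kind and cover counting error only, because neighbouring sites are not independent and nearly every list came from 1 library.

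The study compared control cells with Pbrm1 knockout (KO) cells, untreated (0 h) or given 5 ng/ml TGFβ1 for 24 h or 48 h. Control cells were profiled for BRG1 at 0 h only, for PHF10 and ATF3 at 0, 24 and 48 h, and for FOSL2, FOSB, H3K4me3, H3K4me1, H3K27ac, H3K14ac and H3K18ac at 0 and 48 h. KO cells were profiled for PHF10, FOSL2 and FOSB at 0 and 48 h and for ATF3 at 0, 24 and 48 h. There was 1 list per group, except for 2 replicates of control PHF10 at 0 h and at 48 h; the labels do not say whether these were separate cultures or whether the KO cells were 1 clone. Fixation was by formaldehyde alone for FOSL2, FOSB and the marks and by disuccinimidyl glutarate followed by formaldehyde for BRG1, PHF10 and ATF3, so target and fixation cannot be told apart.

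BRG1 (SMARCA4) is the ATPase motor of SWI/SNF chromatin remodelling complexes, which slide or evict nucleosomes. PHF10 and PBRM1, the product of Pbrm1, are subunits of the PBAF form of the complex, which is found mainly at active promoters, whereas the BAF form, built around ARID1A or ARID1B, works largely at enhancers. Enhancers commonly carry H3K4me1 and, when active, H3K27ac, while H3K4me3 marks active promoters. FOSL2 and FOSB are FOS family members of the AP-1 group, which bind DNA as dimers with JUN proteins at the motif TGANTCA, and ATF3 is a related stress- and TGFβ-induced factor that can bind the cyclic AMP response element TGACGTCA or AP-1 sites.

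Sequence was available for the sites that hold a RefSeq promoter window, mostly of long noncoding RNAs, since the rule kept protein-coding gene ends away. RefSeq windows (GRCm38.p6, the assembly that mm10 names; 250 bases before to 50 after a transcript start) touched 397 of the sites, and 207 windows lay wholly inside 186 of them. The 5 below were chosen because FOSL2 was called there at 48 h and because they show the AP-1 letters in sites of different settings: near a keratin gene, inside an adhesion receptor gene and a phosphatase gene, near Gli3, and with no protein-coding gene end within 100 kb (4930471E19Rik). Each is the 250 bases before the transcript start, 5′ to 3′, with each match to TGANTCA in capitals.
Gm41405, chr15:102045068-102045317, plus strand: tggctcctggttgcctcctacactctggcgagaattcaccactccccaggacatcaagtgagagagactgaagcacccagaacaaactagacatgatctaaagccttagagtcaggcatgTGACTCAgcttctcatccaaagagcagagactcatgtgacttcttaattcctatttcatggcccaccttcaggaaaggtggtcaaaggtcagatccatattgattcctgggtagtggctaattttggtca
Adgrg1, chr8:94984149-94984398, plus strand: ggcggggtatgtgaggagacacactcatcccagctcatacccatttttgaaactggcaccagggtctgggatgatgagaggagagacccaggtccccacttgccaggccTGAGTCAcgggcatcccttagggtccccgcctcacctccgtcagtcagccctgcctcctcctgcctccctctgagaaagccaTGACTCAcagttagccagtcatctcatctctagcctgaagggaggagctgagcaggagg
Ptpre, chr7:135605578-135605827, plus strand: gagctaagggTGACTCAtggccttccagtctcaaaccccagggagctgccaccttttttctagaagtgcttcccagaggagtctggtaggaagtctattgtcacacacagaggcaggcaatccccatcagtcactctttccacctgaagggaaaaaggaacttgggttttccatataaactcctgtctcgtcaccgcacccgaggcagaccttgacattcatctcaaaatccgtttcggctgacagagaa
4930471E19Rik, chr10:120636108-120636357, minus strand: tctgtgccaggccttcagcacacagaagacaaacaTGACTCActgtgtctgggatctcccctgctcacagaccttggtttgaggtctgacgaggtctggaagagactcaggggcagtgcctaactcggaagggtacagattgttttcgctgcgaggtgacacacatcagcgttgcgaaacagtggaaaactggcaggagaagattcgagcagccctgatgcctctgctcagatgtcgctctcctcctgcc
A530046M15Rik, chr13:15806993-15807242, plus strand: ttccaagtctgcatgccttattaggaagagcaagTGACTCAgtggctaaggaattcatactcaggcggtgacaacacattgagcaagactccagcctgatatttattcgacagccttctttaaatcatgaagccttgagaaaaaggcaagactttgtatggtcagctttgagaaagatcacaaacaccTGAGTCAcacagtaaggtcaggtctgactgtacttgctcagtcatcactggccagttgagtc
The Gm41405 window lies in a 1245 bp site whose nearest protein-coding gene end is that of Krt18, which encodes a keratin of simple epithelia. FOSL2 there had a fold enrichment (the authors' ChIP-over-input ratio at the peak) of 9.75 in control cells at 48 h and 14.7 in KO cells. The Adgrg1 window, before an internal start of an adhesion G protein-coupled receptor gene, holds 2 matches, and its site had FOSL2 at 9.63 and FOSB at 5.84. The Ptpre window, in a receptor-type phosphatase gene, lay in a site with FOSL2 at 7.38 and H3K18ac and H3K27ac at both 0 and 48 h. The sites of 4930471E19Rik, with FOSL2 at 8.07, and of A530046M15Rik, near Gli3 with 2 matches and FOSL2 at 5.99, also had FOSB peaks.

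Among the 27 windows inside sites with FOSL2 at 48 h, 15 held TGANTCA, or 55.6% (35.3 to 74.5). The motif, which reads the same on both strands and shares no full match with TGACGTCA, was in 39 of 180 windows inside sites without FOSL2, or 21.7% (15.9 to 28.4). It was in 116 of 2511 windows inside BRG1 sites with PHF10 and H3K4me3, or 4.62%, and in 2565 of all 32851 windows, or 7.81%. The order was therefore FOSL2-bound distal sites, other distal sites, all windows and then promoter-type BRG1 sites. Base composition and transcript class moved with it: median GC content was 51.3% in the distal windows, 68.7% in the promoter-type ones and 52.7% in all windows, and 167 of the 207 distal windows belonged to long noncoding RNAs. Within that class, 37 of 167 distal windows (22.2%) and 1079 of all 11588 (9.31%) held the motif. The part of base composition was not tested.

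Of the 9 motifs searched, the E-box letters CAGGTG, a core shared by many basic helix-loop-helix and zinc finger factors, were the most frequent in distal windows, at 66 of 207 (31.9%), next to 26.1% for TGANTCA; they were in 16.2% of promoter-type windows and 20.2% of all. The TEAD letters ACATTCC, of the DNA-binding partners of YAP and TAZ, were in 19 of 207 distal windows (9.18%), 1.99% of promoter-type windows and 3.85% of all. The RUNX letters TGTGGTT were in 21 distal windows (10.1%), 2.67% of promoter-type windows and 5.27% of all. The ETS letters CCGGAAGT, common in promoters, were in 2 distal windows (0.966%), 6.49% of promoter-type windows and 3.89% of all. TGACGTCA was in 2 distal windows (0.966%, 0.117 to 3.45), against 3.15% and 1.79%, both within the distal interval. The GRHL letters AACCNGTT were in 5 distal windows (2.42%), 1.23% of promoter-type windows and 2.09% of all, and the CTCF motif in 4 distal windows (1.93%), 1.47% and 0.916%, both within the distal interval. The NFI motif was in 0 of 207 distal windows (upper bound 1.77%). Both strands were searched, and several transcripts of 1 gene can give overlapping windows. These windows are a small and unusual share of the sites, at annotated transcript starts, and a match is not a bound site.

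Some facts of the whole series bear on all that follows. The 32 lists hold 806216 peaks and differ widely in length: 11285 and 14731 for the control PHF10 replicates at 0 h, 28011 at 24 h, and 43549 and 102434 at 48 h. The control ATF3 lists ran from 20 peaks at 0 h to 2004 at 24 h and 45716 at 48 h, and FOSL2 from 7 to 3444. KO lists at 48 h were longer for PHF10 (158815), ATF3 (144513) and FOSL2 (7381). Read totals were not used here, so depth, antibody performance and binding cannot be told apart behind a list's length. BRG1 and PHF10 peaks reached down to a −log10 q of about 1.01, and the ATF3, FOSL2, FOSB and mark lists started at 1.30 or above.

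The untreated KO PHF10 list, which the rule did not use, also had few peaks at these sites. Of the 19957 sites, 3 overlapped the KO PHF10 list at 0 h (0.0150%), although 17.4% of all BRG1 sites did and 5037 of the 5843 BRG1 sites with PHF10 and H3K4me3 did. Those 3 lay inside Gucy2g, Nkain4 and Lrrc4b. Of the 2087 gene-end sites without PHF10 or H3K4me3, which the same control lists defined, 0 overlapped it. H3K4me3 at 48 h was called at 68 sites (0.341%, against 24.2% of all BRG1 sites and 2.35% of those gene-end sites). Over all BRG1 sites, 97.4% of those with H3K4me3 at 0 h kept it at 48 h. Leaving out sites with the mark at 0 h therefore largely fixed its low share at 48 h. In untreated control cells the PHF10 condition removed little once H3K4me3 and distance had been applied: 19957 of 19998 distal BRG1 sites without H3K4me3 had no PHF10 (99.8%), and 41 had it. Conversely, 5843 of the 5894 BRG1 sites with PHF10 also carried H3K4me3 (99.1%). At the distance threshold, the nearest sites kept lay 2002 bp from a gene end, those of Dym, Slc29a2 and Apba2, and the nearest ones left out lay 1997 bp from Carhsp1 and Medag and 1994 bp from H2-M3.

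Most of the sites were narrow and modest in BRG1 enrichment. Width ran from 199 to 5690 bp with a median of 512 bp, and BRG1 fold enrichment from 1.37 to 11.997 with a median of 2.93, next to 2.82 at BRG1 sites with PHF10 and H3K4me3. The −log10 q had a median of 1.74 and 11864 sites were under 2. The median distance to a protein-coding gene end was 24970 bp, and 6070 sites (30.4%) were over 50 kb away. About equal numbers lay within and between genes, with 10298 (51.6%) inside a protein-coding gene's span. The annotation used here gives gene spans only, so exons and introns were not assigned.

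The highest BRG1 fold was at chr11:12071823-12072922, 34395 bp from Grb10, an adaptor that restrains insulin and growth factor receptor signalling, with a fold of 11.997 and no peak of PHF10, ATF3, FOSL2, FOSB, H3K27ac or H3K18ac. A site inside D5Ertd579e had a BRG1 fold of 10.9 and FOSL2 at 6.84 at 48 h. Sites inside Creb3l1, an endoplasmic reticulum transcription factor (BRG1 9.40, FOSL2 7.81), and inside Elovl7, a fatty acid elongase (BRG1 9.05, FOSL2 7.29, FOSB 5.56), followed the same pattern. Of the 10 sites with the highest BRG1 fold, the 4 with FOSL2 in control cells were these 3 and a site 43966 bp from Slc35f3, where FOSL2 was at 6.77.

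Many of the sites lay close to another. Of 19957, 8143 (40.8%) had another within 10 kb, and joining sites at gaps of up to 10 kb gave 15000 runs, of which 172 held 5 or more. Spacing was not computed for other BRG1 sites, so whether it is particular to distal sites cannot be told. The longest run by number held 15 sites over 49465 bp at Sfi1 (chr11:3139913-3189377). Runs of 12 lay in Septin9, a cytoskeletal GTPase gene, and in Myh9, the heavy chain of nonmuscle myosin IIA. A run of 11 lay between genes next to Ywhaz, and runs of 10 in Smad3, the TGFβ signal transducer, in Pacsin2 and beside Klf14. Repeats and copy number can raise peak calls locally and were not removed or tested.

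Among the control factors at 48 h, FOSL2 and FOSB had the largest shares of their peaks in distal BRG1 sites. At 48 h of TGFβ1, control FOSL2 covered 1456 of the 19957 sites, or 7.30% (6.94 to 7.67), against 5.89% of all BRG1 sites. The share was 1.71% (1.39 to 2.08) at the 5843 BRG1 sites with PHF10 and H3K4me3, 3.05% at the 1277 with H3K4me3 alone, and 5.80% (4.83 to 6.89) at the 2087 gene-end sites with neither. Seen from the other side, 1469 of the 3444 FOSL2 peaks (42.7%) lay in a distal site, and 1740 (50.5%) in any BRG1 site. The FOSL2 list at 0 h held 7 peaks in all, of which 1 lay in a distal site, near Ankrd12 (0.0103% of all BRG1 sites had FOSL2 at 0 h), so binding before TGFβ1 could not be compared.

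**Figure D1:**
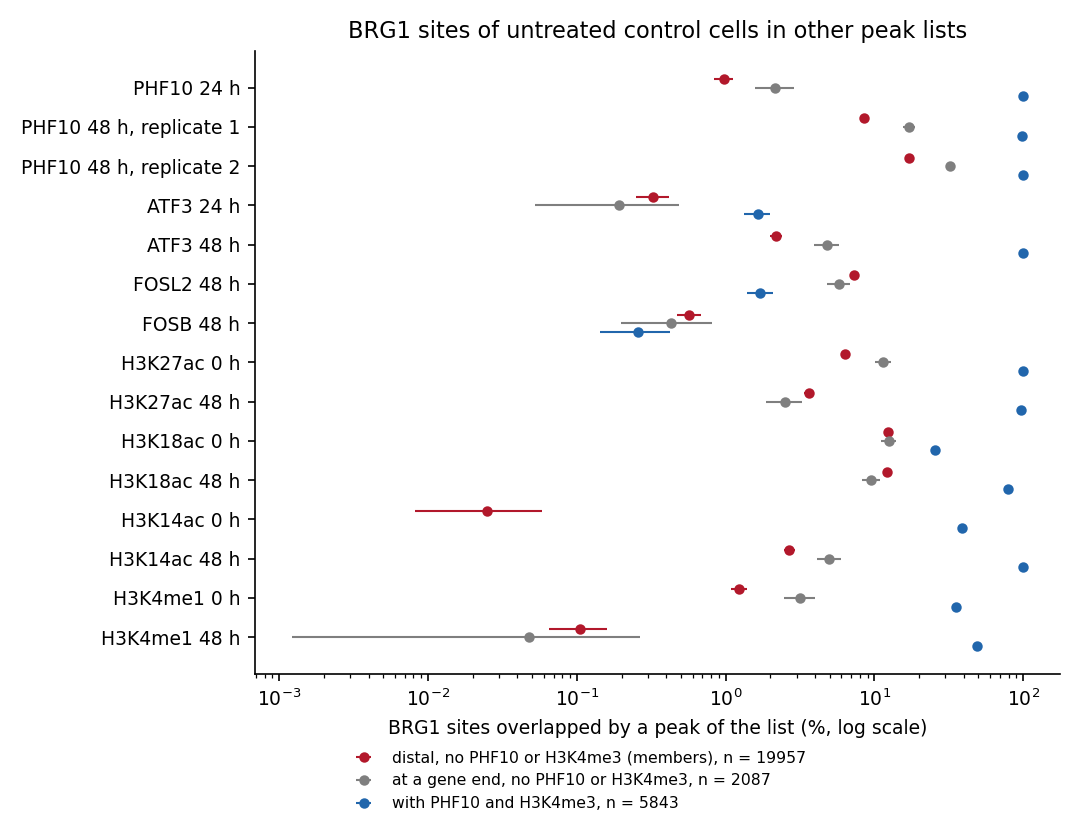
Share of BRG1 sites overlapped by each control list (horizontal axis, percent on a log scale) for the 19957 distal sites, 2087 gene-end sites without PHF10 or H3K4me3, and 5843 sites with PHF10 and H3K4me3; points are shares of sites in 1 library and bars exact 95% intervals, and shares of 0 are not drawn. FOSL2 is higher at distal sites (7.30%) than at promoter-type sites (1.71%), while PHF10, ATF3, H3K27ac and H3K14ac at 48 h are near 100% at the latter.

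FOSL2 occupancy rose with the strength of BRG1 at 0 h. Sites with a BRG1 −log10 q under 2 had FOSL2 at 2.95% (350 of 11864), those from 2 to 3 at 9.09%, from 3 to 5 at 15.3%, from 5 to 10 at 22.3%, and those at 10 or more at 25.8% of 283. The climb was not particular to distal sites. At BRG1 sites with PHF10 and H3K4me3 the shares over these classes were 0.478%, 1.73%, 3.81%, 7.52% and 37.5% (3 of 8). Median width of the distal sites went from 477 bp to 646 bp and back to 570 bp over the same classes. When each distal site was reduced to its central 200 bp the shares were 2.07%, 5.78%, 10.6%, 16.9% and 22.6%. The part of width was not tested. PHF10 at 48 h showed no such climb at the distal sites. In replicate 1 it was at 7.27%, 10.4%, 11.4%, 8.16% and 5.65% from the weakest class to the strongest, in replicate 2 at 17.98%, 17.4%, 17.0%, 11.4% and 8.48%, and in both replicates at 5.25%, 7.19%, 7.88%, 5.38% and 3.53%. ATF3 at 48 h stayed between 1.39% and 2.45%. H3K18ac at 0 h went from 5.30% in the weakest class to 28.2% at a −log10 q of 3 to 5 and 31.4% in the strongest, and H3K27ac at 0 h from 2.87% to 13.7% and 10.6%.

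**Figure D2:**
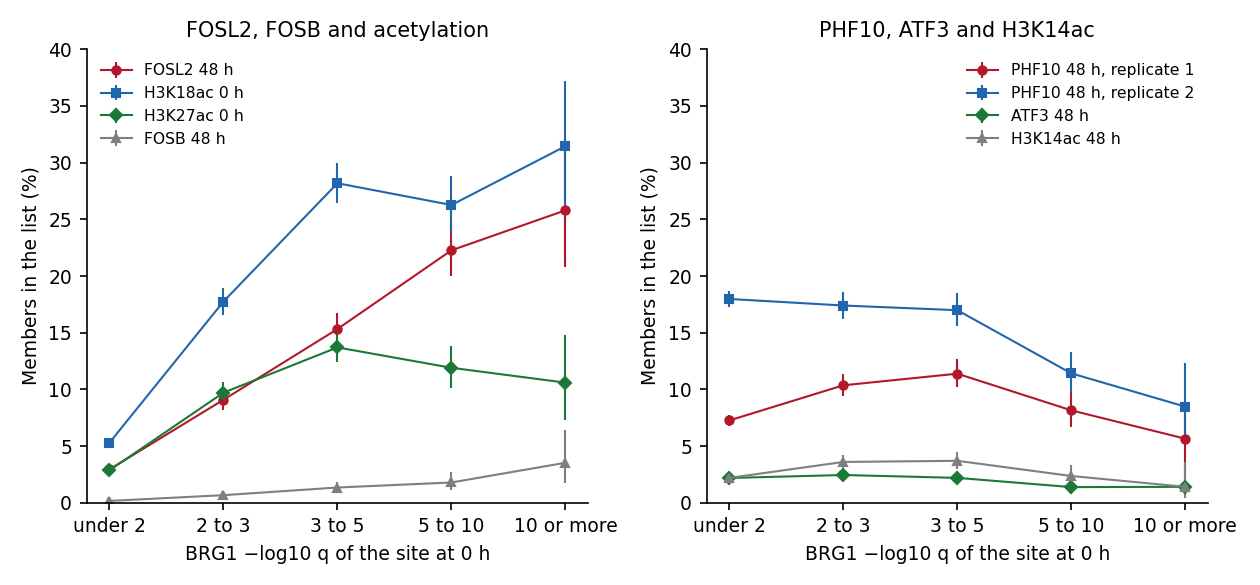
Share of distal sites in a list (vertical axis, percent) by the BRG1 −log10 q of the site at 0 h (horizontal axis, 5 classes of 11864, 3994, 2590, 1226 and 283 sites); points are shares of sites and bars exact 95% intervals. FOSL2 climbs from 2.95% to 25.8%, whereas PHF10 goes from 7.27% over 11.4% to 5.65% in replicate 1 and from 17.98% to 8.48% in replicate 2.

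The strongest FOSL2 site, at chr17:65960832-65962258 and 3445 bp from Ankrd12, had a FOSL2 fold of 34.4 in control cells and 48.8 in KO cells at 48 h, with FOSB at 8.35. Next were a site 31533 bp from Coq2, a coenzyme Q synthesis gene (19.8), a site 28843 bp from Noct, a circadian deadenylase-like protein (19.03), and a site 2940 bp from Anxa1, annexin A1 (18.9). A site inside Htra3, a secreted serine protease, stood at 18.2. All 10 of the strongest were also called in KO cells, at folds of 20.8 to 48.8. Their BRG1 folds at 0 h ran from 3.10 to 5.03.

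FOSB was called at few places, most of them in distal sites, but its share of distal sites was near that of all BRG1 sites. The control list at 48 h held 188 peaks, of which 114 (60.6%) lay in 114 of the 19957 sites (0.571%, against 0.496% of all BRG1 sites). In any BRG1 site lay 145 (77.1%). The share was 0.548% at sites with H3K4me3 alone and 0.431% (0.197 to 0.817) at gene-end sites with neither PHF10 nor H3K4me3. At sites with PHF10 and H3K4me3 it was 0.257% (0.144 to 0.423). FOSL2 was called at 93 of the 114 distal sites. The highest FOSB fold was 12.5, inside Camk2d, a calcium/calmodulin-dependent kinase, where FOSL2 stood at 9.37. A site 4564 bp from Gal, the galanin neuropeptide gene, had FOSB at 8.81 and FOSL2 at 13.7, and a site inside Ccnd3, cyclin D3, had 7.15 and 11.9. Zcchc2 (FOSB 9.86) and Rheb (7.22), an activator of mTORC1, held sites with FOSB and no control FOSL2 peak.

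PHF10 appeared at a minority of the distal sites after TGFβ1, with weak peaks. It was called at 194 sites at 24 h, or 0.972% (0.841 to 1.12), against 23.5% of all BRG1 sites. At 48 h it was called at 1687 sites in replicate 1 (8.45%, against 30.2% of all BRG1 sites) and at 3432 in replicate 2 (17.2%, against 38.1%), a mean of 12.8% ± 6.18 (SD, n = 2). In both replicates it was called at 1190 sites, or 5.96% (5.64 to 6.30), against 28.0% of all BRG1 sites. The latter include the 5843 sites with PHF10 and H3K4me3 at 0 h, where this share was 98.2%. The rule left such sites out of the distal set, so part of the gap was built in. Sites without PHF10 at 0 h are a closer comparison. The share in both replicates was 13.4% at the 2087 gene-end sites without PHF10 or H3K4me3. It was 74.9% at the 1277 sites with H3K4me3 alone. Replicate 2 held 70.5% of the distal sites of replicate 1, and replicate 1 held 34.7% of those of replicate 2. Of the 194 sites at 24 h, 182 had PHF10 in 1 or both replicates at 48 h, and 113 had it in both. This overlap between times was not counted over all BRG1 sites.

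**Figure D3:**
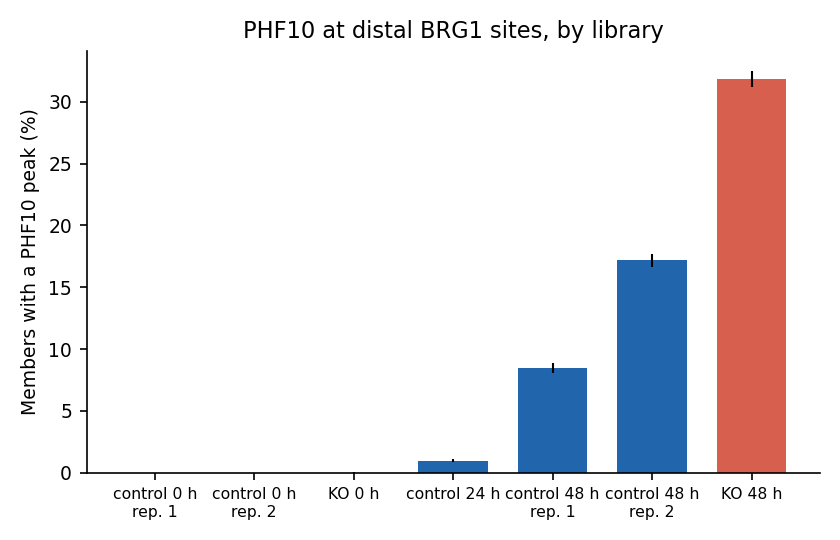
Share of the 19957 distal sites with a PHF10 peak (vertical axis, percent) in each of the 7 PHF10 libraries; bars are single libraries, error bars exact 95% intervals, and the control 0 h values are 0 by the rule. The 48 h libraries stand at 8.45% and 17.2% in control and 31.8% in KO cells.

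The later PHF10 peaks at these sites were low. The median fold was 2.81 in replicate 1 and 2.72 in replicate 2, against 3.75 and 2.84 at BRG1 sites with PHF10 and H3K4me3. None of the 19957 sites reached a fold of 5 in both replicates, and 26 reached a −log10 q of 5 in both. In replicate 2 such folds were rare at promoter-type sites too. At BRG1 sites with PHF10 and H3K4me3 its upper quartile was 3.09 and its highest fold 5.53. The fold limit therefore says little about distal sites, and neither limit was counted over all BRG1 sites. With each 48 h list cut to its 10000 most significant peaks, a length under those at 0 h, 30 sites (0.150%) had PHF10 in both. The gain therefore lay in the weak part of lists several times longer than those at 0 h, and list length moved with time; its part was not tested.

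The highest mean PHF10 folds were 4.80, at a 226 bp site 56032 bp from Sox1 and at a site inside Dyrk1a, a kinase gene. Sites inside Med27, a Mediator subunit (4.71), Rassf8 (4.55) and Lamb1, a laminin chain (4.41), followed. Rassf8 also had H3K27ac at a fold of 14.5 at 0 h and 3.99 at 48 h, and ATF3 at 4.68. All of these but the site near Sox1 were called for PHF10 in KO cells at 48 h as well.

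ATF3 at 48 h was called at few distal sites. No site had ATF3 at 0 h (0.0240% of all BRG1 sites did), 65 (0.326%) had it at 24 h against 0.606% of all BRG1 sites, and 436 had it at 48 h, or 2.18% (1.99 to 2.40), against 25.5% of all BRG1 sites. At BRG1 sites with PHF10 and H3K4me3 the 48 h share was 99.9%, at those with H3K4me3 alone 83.4%, and at gene-end sites without PHF10 or H3K4me3 4.79% (3.92 to 5.80). Its median fold was 4.91 at the distal sites and 9.65 at the promoter-type ones. Of the 45716 ATF3 peaks, 0.962% lay in a distal site. Cut to its 10000 most significant peaks, it touched 12 of them (0.0601%).

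The highest distal ATF3 folds at 48 h were 14.8 inside Camk1d, a calmodulin kinase, where H3K27ac was at 20.4 at 0 h, and 13.3 inside both Bahcc1 and Hipk1, a homeodomain-interacting kinase. At 24 h the highest was 6.60, inside Slc2a9, a urate transporter gene; it was not called at 48 h.

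The distal sites with later PHF10 and those with later FOSL2 differed in their marks. Of the 1190 sites with PHF10 in both 48 h replicates, 462 had carried H3K27ac at 0 h, or 38.8% (36.04 to 41.7), against 4.25% of the other 18767. ATF3 at 48 h was called at 20.5% of them against 1.02%, and H3K14ac at 48 h at 27.2% against 1.12%. FOSL2 at 48 h was at 7.39% and 7.29%, and their median BRG1 −log10 q was 1.94 against 1.73. Sites with PHF10 were wider (median 794 bp against 496 bp) and closer to gene ends (16608 bp against 25832 bp), and the part of either was not tested. Several 48 h lists give their input the same name, so they may share an input library.

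The 1456 sites with FOSL2 had more H3K18ac. At 0 h it was called at 25.5% (23.3 to 27.9) of them against 11.4% of the other sites, and at 48 h at 33.2% (30.8 to 35.7) against 10.6%. H3K27ac was at 11.2% against 5.92% at 0 h and at 9.89% against 3.12% at 48 h. PHF10 in both 48 h replicates was at 6.04% and 5.96%, and ATF3 at 2.13% and 2.19%, so FOSL2 and PHF10 or ATF3 met about as often as at sites without FOSL2. Median width was 681 bp against 500 bp, and 23.8% against 6.29% had a BRG1 −log10 q of 5 or more.

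Most sites with later PHF10 or ATF3 had no H3K27ac peak at 0 h, and fewer had one at 48 h. H3K27ac went from 38.8% at 0 h to 4.79% at 48 h at sites with PHF10 in both replicates, and from 45.0% to 6.42% at the 436 sites with ATF3. At sites with FOSL2 it went from 11.2% to 9.89%. With both H3K27ac lists at the length of the shorter, 15962 peaks, the shares were 29.8% and 4.79% with PHF10, 37.4% and 6.42% with ATF3, and 6.39% and 9.89% with FOSL2. Each H3K27ac list is a single library.

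**Figure D4:**
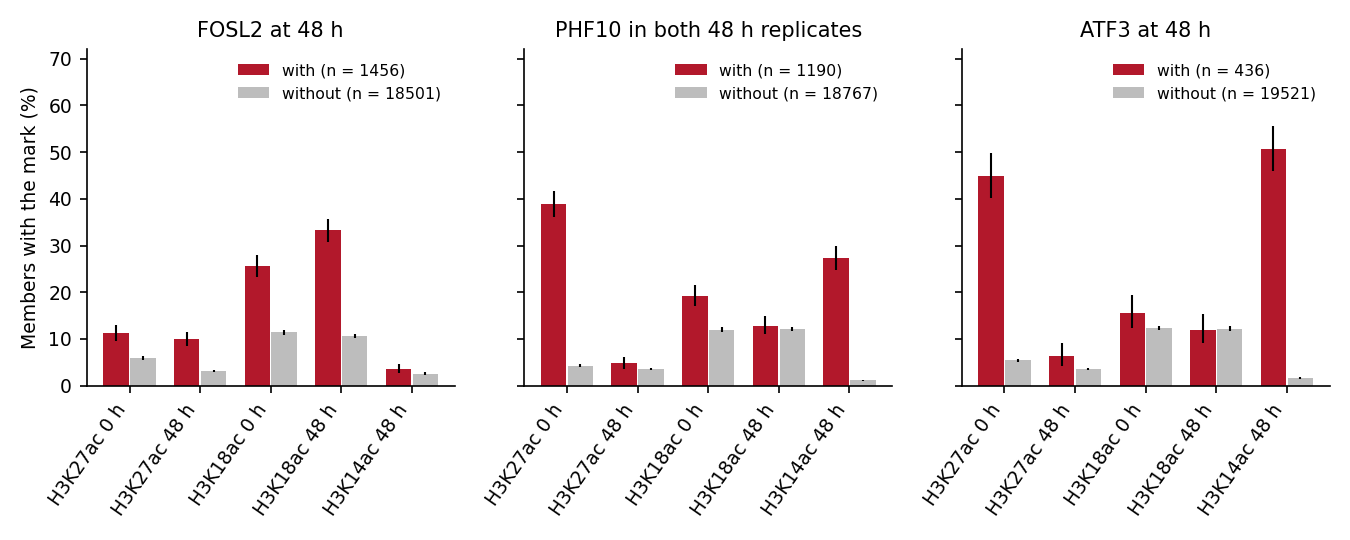
Share of distal sites with a histone mark (vertical axis, percent) at sites with (red) and without (grey) FOSL2, PHF10 in both replicates, or ATF3 at 48 h; bars are shares of sites in 1 library per mark and error bars exact 95% intervals. H3K27ac goes from 38.8% to 4.79% between 0 and 48 h at sites with PHF10, while H3K18ac is 25.5% and 33.2% at sites with FOSL2.

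Distal sites where the 48 h factors met were few. These combinations were not counted over all BRG1 sites, so whether their number is particular to distal sites cannot be told. Of all BRG1 sites, 28.0% had PHF10 in both replicates, 25.5% ATF3 and 5.89% FOSL2. PHF10 in both replicates and ATF3 met at 226 sites without FOSL2, PHF10 and FOSL2 at 70 without ATF3, and ATF3 and FOSL2 at 13 without PHF10. All of PHF10, ATF3 and FOSL2 were at 18 sites, 14760 sites (74.0%) had no later peak of any control factor (any was called at 26.0%, against 45.1% of all BRG1 sites), and 17220 had none of ATF3, FOSL2 and PHF10 in both replicates. Of the 18, the highest FOSL2 fold was 17.2, inside Kank1, a regulator of the actin cortex, where ATF3 stood at 5.59, FOSB at 6.88 and mean PHF10 at 2.92. Myh9 (FOSL2 8.49, ATF3 6.26), Tfeb, a lysosomal transcription factor (7.26 and 6.33), and Septin9 (7.03 and 3.89) held such sites. A further one lay 31994 bp from Snai1, the EMT repressor, with FOSL2 at 7.03, ATF3 at 4.21 and PHF10 at 2.29.

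Over all 19957 sites, few carried an enhancer mark in these lists. At 0 h, H3K18ac was called at 2479 sites (12.4%, against 15.1% of all BRG1 sites), H3K27ac at 1259 (6.31%, against 28.7%), H3K4me1 at 247 (1.24%, against 9.58%) and H3K14ac at 5 (0.0251%, against 7.81%). H3K4me1, the usual mark of enhancers, was more often called at BRG1 sites with PHF10 and H3K4me3 (35.5%) than at distal ones (1.24%). The H3K4me1 list at 0 h was weak, with a median fold of 3.44 over its peaks. The promoter-type sites were also wider, at a median of 785 bp against 512 bp. The part of either was not tested. Acetylation was more frequent where BRG1 was stronger: H3K27ac or H3K18ac was called at 0 h at 7.16% of sites with a BRG1 −log10 q under 2, 31.97% of those from 3 to 5 and 32.9% of those at 10 or more. At 15670 sites (78.5%) none of these 4 marks was called at 0 or 48 h; any was called at 21.5%, against 40.8% of all BRG1 sites. Neither a later factor peak in control cells nor any of H3K27ac, H3K18ac, H3K14ac and H3K4me1 at 0 or 48 h was called at 12288 distal sites, or 61.6% (60.9 to 62.2). The share was 45.7% over all BRG1 sites and 49.7% (47.6 to 51.9) at gene-end sites without PHF10 or H3K4me3. H3K18ac was called at nearly equal shares of distal and gene-end sites without PHF10 or H3K4me3 (12.4% and 12.5%).

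Between 0 and 48 h many distal sites lost or gained a mark. H3K18ac was called at 2440 sites at 48 h (12.2%, against 25.4% of all BRG1 sites); 1298 kept it, 1181 lost it and 1142 gained it. H3K27ac went to 722 sites (3.62%, against 23.7%), with 293 kept, 966 lost and 429 gained. The share kept was 23.3% (21.0 to 25.7) for H3K27ac and 52.4% (50.4 to 54.3) for H3K18ac, next to 97.3% and 95.9% at BRG1 sites with PHF10 and H3K4me3. Gene-end sites without PHF10 or H3K4me3 kept less than the distal ones, at 10.0% (6.54 to 14.6) and 42.3% (36.2 to 48.6). The median H3K27ac fold at 0 h was 4.85 at distal sites and 86.3 at BRG1 sites with PHF10 and H3K4me3. For H3K18ac at 0 h the medians were 5.93 and 4.67. The part of peak strength in the shares kept was not tested. H3K4me1 went from 247 sites to 21 (against 10.3% of all BRG1 sites), with 1 kept, and H3K14ac from 5 to 534 (against 26.1%).

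These totals depended on list length. At 15962 peaks in each list, H3K27ac was at 716 distal sites at 0 h and 722 at 48 h, so the lower number at 48 h was not seen, while 161 sites kept the mark (22.5%). At 13226 peaks, H3K18ac went from 2479 sites to 1485 (12.4% to 7.44%) and 37.3% kept it, while over all BRG1 sites its share went from 15.1% to 21.5%. At 12863 peaks, H3K4me1 went from 130 sites to 21 (0.651% to 0.105%), while over all BRG1 sites it went from 5.50% to 10.3%. At 3453 peaks, H3K14ac went from 5 sites to 0, so its gain lay wholly in the longer part of the 48 h list.

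The most enriched H3K27ac at 0 h among the distal sites was inside Cttn, cortactin, at a fold of 97.1, and 7644 bp from Nr4a1, an immediate early nuclear receptor, at 62.1; neither was called at 48 h, and both had PHF10 at 48 h. A site inside Icam1, a leukocyte adhesion molecule, went from 25.6 to no peak, with ATF3 at 4.75 at 48 h. Among sites without the mark at 0 h, the highest at 48 h was 18.02, at a 239 bp site 48889 bp from Rab11fip2, where H3K18ac was called at 0 and 48 h. Sites 6610 bp from Phlda1 (13.9) and inside Gna14 (13.8) gained the mark and had FOSL2 at 48 h, at 7.81 and 7.14. Another lay 161651 bp from Tgfb2, a TGFβ ligand gene, at 14.2.

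In KO cells at 48 h, more distal sites were called for PHF10, ATF3 and FOSL2, from longer lists. PHF10 was at 6356 sites (31.8%, against 49.6% of all BRG1 sites), ATF3 at 4007 (20.1%, against 38.4%) and FOSL2 at 2555 (12.8%, against 10.4%). FOSB was at 18 (0.0902%, against 0.0856%). FOSL2 was called in both genotypes at 1353 sites, in KO cells alone at 1202 and in control cells alone at 103. These came from lists of 3444 peaks in control and 7381 in KO cells. The excess in KO cells was not particular to distal sites. At BRG1 sites with PHF10 and H3K4me3, FOSL2 was called at 100 in control cells, 178 in KO cells and 90 in both. Each KO list is 1 library.

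At equal list length the genotypes stood further apart for ATF3 than for FOSL2. With both lists at 45716 peaks, ATF3 was at 1372 distal sites in KO cells (6.87%, against 20.5% of all BRG1 sites) and 436 in control cells (2.18%, against 25.5%). At BRG1 sites with PHF10 and H3K4me3 the order was reversed, at 66.6% in KO and 99.9% in control cells, but with lists as deposited the KO share there was 95.1%, and cutting the KO PHF10 list to the length of control replicate 1 lowered its share there likewise, from 99.7% to 65.8% (control 98.6%). With both at 3444 peaks, FOSL2 was at 1498 sites in KO (7.51%, against 6.02% of all BRG1 sites) and 1456 in control cells (7.30%), with 1086 shared. PHF10 in KO cells was at 7.72% at the length of control replicate 1 (against 21.5% of all BRG1 sites; control 8.45%) and at 21.1% at the length of replicate 2 (against 39.7%; control 17.2%), so the direction differed with the replicate. Without a replicate of any KO list, none of these differences could be set against a spread between libraries.

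**Figure D5:**
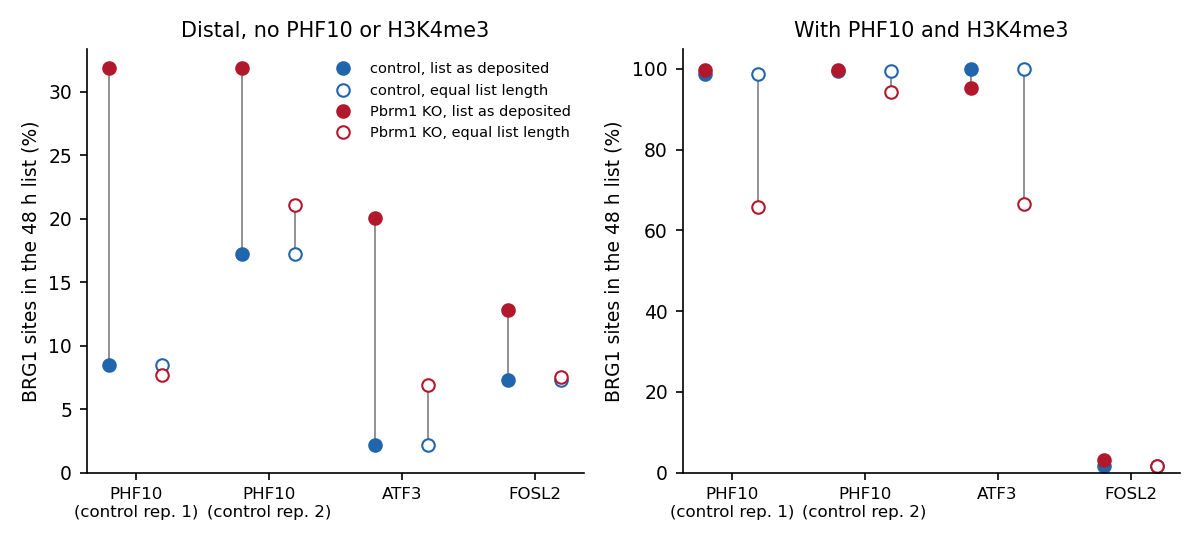
Share of BRG1 sites in the 48 h list (vertical axis, percent; the panels have different scales) for control (blue) and Pbrm1 KO (red) cells, with lists as deposited (filled) and cut to equal length (open), at distal sites (left) and sites with PHF10 and H3K4me3 (right); points are single libraries. At equal length, ATF3 in KO cells is higher at distal sites (6.87% and 2.18%) and lower at promoter-type sites (66.6% and 99.9%, as deposited 95.1% and 99.9%), and FOSL2 is 7.51% and 7.30% at distal sites.

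Distal sites lay at many genes of epithelial identity and of the TGFβ response. Counting a protein-coding gene as having a site when one lay in its span or within 10 kb of it, 30.3% of 21887 genes had 1 or more, 3.88% had a site with FOSL2 at 48 h, 3.67% a site with PHF10 in both 48 h replicates and 3.72% a site with H3K27ac at 0 h. Of 50 mesenchymal and TGFβ response genes, 27 had a site, 5 a FOSL2 site, 6 a PHF10 site and 12 an H3K27ac site. Smad3 held 13 (2 with FOSL2), Itgb6, an integrin subunit that takes part in TGFβ activation, 9, and Pmepa1, a TGFβ-induced inhibitor of the pathway, 9, of which 5 had PHF10 in both 48 h replicates and 5 had H3K27ac at 0 h. Ski, a SMAD corepressor, held 8, Hmga2 6 and the inhibitory Smad7 5. Of 38 epithelial genes, 23 had a site, 9 a FOSL2 site, 8 a PHF10 site and 8 an H3K27ac site. Cdh1, which encodes E-cadherin, held 10 (1 with FOSL2) and the tight junction scaffold gene Tjp1 held 9 (none with FOSL2).

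Of 23 genes of the Hippo pathway, 18 had a site and 3 a FOSL2 site, with 10 sites at Wwc1, which encodes the upstream regulator KIBRA, 9 at Crim1 and 8 each at Ptpn14, a YAP inhibitor, and Tead1. Among 25 AP-1 and ATF genes, 15 had a site and 4 a FOSL2 site, with up to 4 at Atf7. Of 27 SWI/SNF subunit genes, 12 had a site; Arid1b held 11, and Phf10 itself held 1, which had FOSL2. Of the lists taken for comparison, 7 of 20 housekeeping genes had a site and none a FOSL2 site, and 12 of 29 markers of other cell types had a site and 4 a FOSL2 site. Median gene span was 31.8 kb in the SWI/SNF list, 28.2 kb in the mesenchymal, 20.6 kb in the epithelial, 19.1 kb in the Hippo, 16.0 kb in the other cell types, 11.1 kb in the AP-1 and ATF and 6.64 kb in the housekeeping list, next to 17.2 kb over all genes. The share of genes with a site was 78.3% in the Hippo, 60.5% in the epithelial and 15 of 25 in the AP-1 and ATF list. It was 54.0% in the mesenchymal, 44.4% in the SWI/SNF, 41.4% in the other cell types and 35.0% in the housekeeping list. The part of gene span was not tested. The gene with the most distal sites was Septin9 with 22, of which 10 had PHF10 in both replicates. Pde4d, a cyclic AMP phosphodiesterase gene, and Oxr1 held 19 each. All were long, with spans of 162665 bp for Septin9, 1301793 bp for Pde4d and 413570 bp for Oxr1.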

How the data were processed

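ChIP-seq peak lists were used as deposited, from 47 samples of which 15 are inputs without a list. The submitters' processing notes list mm10 and the tools deepTools 3.5.1, Partek 11.0.24.0325, MACS3 3.0.0a7, Bowtie2 2.3.3 and fastp 0.19.5, without roles or settings. Per the file headers, each list sets 1 ChIP library against 1 input. The deposited pileup signal was not used. The deposited −log10 p-values and q-values ranked and filtered peaks. The authors' fold enrichment, a ratio of ChIP over input, described and ranked peaks within a list, and the mean of the 2 PHF10 replicates ranked PHF10 sites.

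The members and gene lists were chosen with earlier results of these data known. Overlap was 1 bp. Starts were read as counted from 0 and are printed from 1. Genes were the 21887 protein-coding spans of RefSeq GRCm38.p6; a named gene holds the site or has the nearest gene end. Named sites were the 10 with the highest fold in each list of interest, and named genes those with the most sites in each gene list, and 5 to 10 of these at most are given. A gene that this rule names is not reported here. Shares have exact Clopper-Pearson intervals at 95%. No test was made, since regions are not replicates. Motifs were planned for windows around site centres, for which a genome was not used here, and were counted in RefSeq promoter windows instead, a choice made after seeing the data, as were the central 200 bp and the equal list lengths. In the equal-length comparisons the longer list was cut by q-value. Overlap code was tested on simulated intervals. Python 3.11.15, pandas 2.3.3, numpy 2.4.6, scipy 1.17.1 and matplotlib 3.10.9 were used.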

Additional observations from a re-analysis of the deposited data

How the results depend on the processing

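No paired analysis was possible because the rule fixes PHF10 at 0 h at 0 and the results come from no test. The number of sites kept within 1.5 times of 19957 under every change of the rule except a BRG1 −log10 q of at least 5, which left 1509; at those, PHF10 in both 48 h replicates was at 5.04%, ATF3 at 1.39%, FOSL2 at 22.9%, H3K27ac at 0 h at 11.7%, H3K4me1 at 0.861% and H3K18ac at 0 and 48 h at 27.2% and 24.0%. Over 10 kb from a gene end, PHF10 was at 5.27%, ATF3 at 1.99% and H3K27ac at 5.64%, and with no PHF10 or H3K4me3 peak within 1 kb PHF10 was at 5.62%. At an overlap of 50% of the shorter peak the shares were 4.11% for PHF10, 1.75% for ATF3, 6.69% for FOSL2, 5.21% for H3K27ac and 0.970% for H3K4me1. Leaving out a replicate of PHF10 gave 5.97% to 17.2% of sites with PHF10 at 48 h.

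Of these 5 shares, that of FOSL2 changed least under stricter −log10 q or fold. The lists differ in fold scale, so a fixed fold cut each at a different point. The median fold over all peaks was 6.55 for FOSL2, 6.75 for ATF3, 10.6 for H3K27ac and 3.44 for H3K4me1. For the PHF10 replicates it was 2.99 and 2.92. The same cuts were not made over all BRG1 sites, so the ranking is not a trait of distal sites. At a −log10 q of at least 5 in the list read, PHF10 was at 0.130%, ATF3 at 1.89%, H3K27ac at 5.54% and H3K4me1 at 0.887%; at a fold of at least 5, PHF10 was at 0, ATF3 at 1.08%, FOSL2 at 6.41%, H3K27ac at 2.94% and H3K4me1 at 0.0150%. At the 10000 most significant peaks, PHF10 was at 0.150%, ATF3 at 0.0601%, H3K27ac at 0.266% and H3K4me1 at 0.436%; the FOSL2 list is shorter, so this was not run for it. In the central 200 bp, the shares were 3.40% for PHF10, 1.12% for ATF3, 5.12% for FOSL2, 3.29% for H3K27ac and 0.551% for H3K4me1. The cause of these shifts was not tested. Of 118 values for the other lists, 54 stayed within the interval of the value reported and 64 did not. Unknown depth and single libraries limit all comparisons between lists.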

Other observations

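The number of distal sites per protein-coding gene differed between chromosomes. There were 168 sites per 100 genes on chromosome 19, 153 on chromosome 1, 148 on chromosome 15 and 132 on chromosome 3, and 49.9 on chromosome 14, 55.6 on chromosome 4, 19.5 on X and 0.391 on Y, where 1 site lay. BRG1 sites with PHF10 and H3K4me3 were likewise most frequent on chromosomes 19, 15 and 1, at 41.3, 37.8 and 33.8 per 100 genes, and less so on 14 (18.3), X (7.97) and Y (1.17). Gene spacing and copy number were not examined.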
